A study of Mus musculus with 24 samples.

Results

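The i10 recombination was examined by setting a recombined clone, clone 18, against its own parental line, with 2 libraries of each. These 4 libraries were selected by their labels from the 24 of the series, in which 5 recombinations (d3, d6, i7, i10 and i12) each have a parental line and 7 recombined clones were sequenced in all. Every line is F121/9, a female F1 hybrid mouse embryonic stem cell line with a CAST/EiJ and a 129/Sv genome. The i10 parental line carries the genotype label control and clone 18 the label recombined. Both were grown in 2i+LIF, that is with the MEK inhibitor PD0325901, the GSK-3β inhibitor CHIR99021 and leukaemia inhibitory factor. Clone 18 is the single clone of i10, so properties of this clone and of the recombination cannot be told apart. The labels give no locus for the recombination. The series asks how expression changes upon recombination, in a study of contacts between the genome and the nuclear lamina.

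In 2i+LIF, mouse embryonic stem cells are held in the naive state of pluripotency, in which Pou5f1, Nanog, Klf4 and Esrrb form the core of the transcription factor network and differentiation genes are mostly silent. The nuclear lamina is the protein meshwork under the inner nuclear membrane, and the chromatin that touches it is mostly inactive. In an F1 hybrid, sequence variants between the strains assign reads to a parental genome, so that each gene has a 129S1 count and a CAST count. A rearrangement that acts on 1 chromosome copy can then be read as a shift in the ratio of these counts even where their sum is steady.

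Total counts were 5189267 and 3286819 in parental replicates 1 and 2, and 4032054 and 5074854 in clone 18 replicates 1 and 2. The other 20 libraries held 3829089 to 15581094, so i10 was among the shallower recombinations. Counts were found for 18456 to 19482 genes per i10 library. Outside the mitochondrial genome, 48.9% to 49.1% of counts were from 129S1. Levels below are in CPM, that is counts scaled to the effective library size. In bulk RNA, fewer cells of a type and less RNA per cell cannot be told apart. The labels call the replicates biological duplicates. Libraries with the same number resembled each other more than replicates of the same line did. Among 8974 better covered genes, whose mean count was 50 or more, the median absolute log2 difference was 0.129 between clone and parental replicate 1 and 0.129 between clone and parental replicate 2. It was 0.320 between the parental replicates and 0.291 between the clone replicates. The same-numbered libraries are therefore called pair 1 and pair 2.

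In its naive markers clone 18 was close to its parental line. The naive markers were high in both, with 8 of 8 detected and a summed level of 6939 and 6185 CPM in the parental line and 6575 and 6381 CPM in the clone. Nanog was at 1357 and 1067 CPM in the parental line and 1276 and 1039 CPM in the clone. Pou5f1, also called Oct4, was at 686 and 660 CPM against 671 and 774 CPM. Esrrb was at 522 and 556 CPM against 494 and 582 CPM. For Nanog and Esrrb the clone differed from its same-numbered parental library by less than the parental replicates differed from each other, and Pou5f1 was higher in clone replicate 2 alone. Several defining markers of other cell types were absent. Fgf5 of primed cells, Sox17 and Foxa2 of endoderm, Elf5 and Hand1 of trophoblast, Mesp1 of mesoderm, and Col3a1, Dcn and Lum of fibroblasts had no count in any of the 4 libraries. The 6 primitive endoderm markers summed to 7.25 and 10.3 CPM in the parental line and 2.90 and 7.51 CPM in the clone, and the 5 trophoblast markers to 1.72 and 0.604 against 0.483 and 0 CPM. Other marker sums were not near 0. The 5 neural markers summed to 118 and 81.9 CPM in the parental line and 114 and 75.7 CPM in the clone, most of it from Nes, an intermediate filament gene, and Tubb3, a neuronal tubulin gene. Tubb3 was at 77.1 and 15.4 against 73.3 and 10.5 CPM, high in replicate 1 of both lines. The 5 mesendoderm markers summed to 17.6 and 8.16 against 12.1 and 8.49 CPM. The 6 fibroblast markers summed to 10.3 and 3.93 against 11.4 and 5.33 CPM. Most of that was Thy1, at 9.73 and 3.32 against 9.91 and 4.54 CPM, and Col1a1 and Col1a2 had 1 to 3 counts per library.

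No gene was called in total counts. Of 16253 genes tested with edgeR's quasi-likelihood test over the 12 groups of the series, 0 had a Benjamini-Hochberg adjusted p under 0.05 (0.0%). This fit had no term for the replicate number, so its SE and p values take in the difference between replicates. At an unadjusted p under 0.05 there were 66 genes higher in clone 18 (0.406%) and 62 lower (0.381%). DESeq2 also called 0, with 75 genes at an unadjusted p under 0.05. A term for the replicate number raised the number at an unadjusted p under 0.05 to 374, with 162 higher and 212 lower, and the number called remained 0. The median gene moved by -0.01 on the log2 scale. The changes of pair 1 and pair 2 were hardly related over the 8974 better covered genes, with a Pearson r of 0.057 across genes, which are not independent replicates. Their signs matched in 51.0% of these genes.

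**Figure D1:**
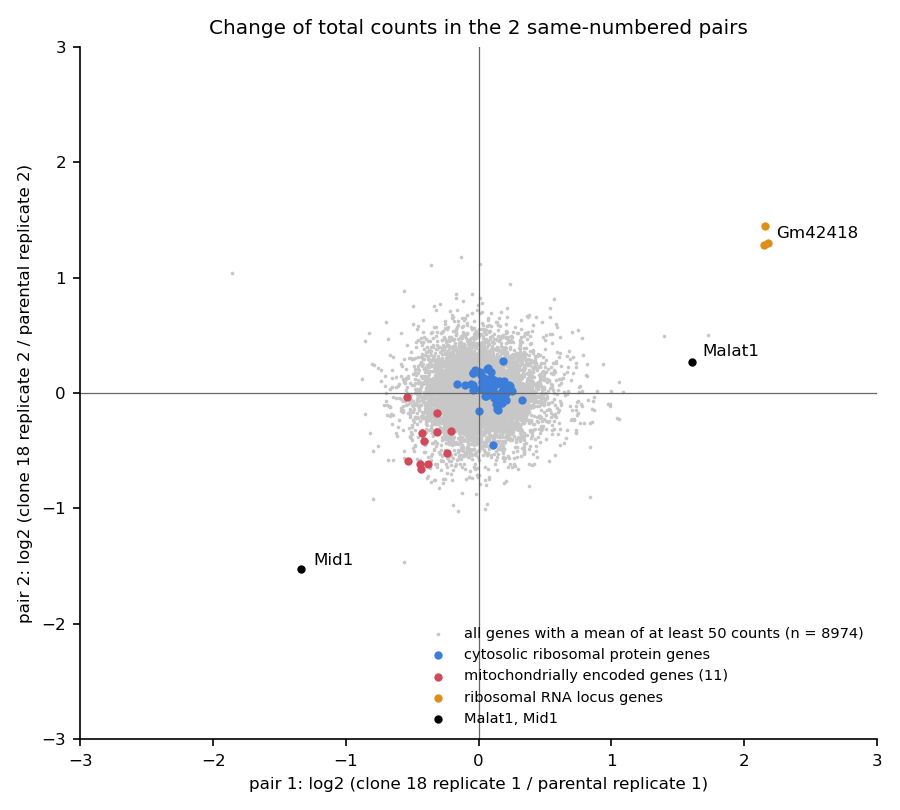
Log2 change from parental to clone 18 in pair 1 (x axis) and pair 2 (y axis) for the 8974 better covered genes; 1 gene lies outside the range of 3 shown. Most genes form a round cloud at 0, while Mid1 sits at low values, and the ribosomal RNA locus genes and Malat1 at high values, on both axes.

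Among the 8974 better covered genes, the one farthest down in both pairs was Mid1 (ENSMUSG00000035299.16; chromosome X, 169685199 to 170005736 in GRCm38), which encodes midline 1, a microtubule-associated ubiquitin ligase. It was at 49.0 and 88.8 CPM in the parental line and at 19.3 and 30.8 CPM in clone 18, from 257, 294, 80 and 156 counts. Both clone libraries lay below both parental libraries. The fitted log2 change was -1.45 (SE 0.44; adjusted p = 1 in edgeR's test), and with the replicate term the adjusted p was 0.723. Without parental replicate 2 the change was -0.96. Every Mid1 count was in the CAST column, in all 24 libraries. Its level varied widely elsewhere, from 1.65 CPM in d3 parental replicate 2 to 154 CPM in d6 clone 16 replicate 1, with a median of 6.48 CPM over the other 20 libraries. Against the mean effect of the other 4 recombinations, the i10 change of Mid1 was lower by -1.98 on the log2 scale (adjusted p = 1.00 in edgeR's test, and 0.0682 with the replicate term). Both the parental and the clone level in i10 therefore lay inside the range that Mid1 spans in the series.

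Mid1 lies on an X chromosome that was unevenly assigned in all libraries. The 129S1 columns held 28.6% to 30.9% of X-linked counts in i10 and 27.0% to 32.2% in the other libraries, against 49.4% to 49.5% of autosomal counts in i10. Of X-linked genes with at least 20 counts, 58.2% to 59.7% had under 5% of their counts in the 129S1 column in i10, and 7.78% to 9.80% had over 95%. The same-numbered libraries were close: the 129S1 share of X-linked counts was 30.9% and 28.7% in the parental line and 30.7% and 28.6% in the clone. Xist, the RNA that coats an inactive X chromosome, had 10 and 3 counts in the parental line and 8 and 7 in the clone.

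Of the other 9 protein-coding genes named as lower, Kmt2e, a chromatin protein with a SET domain, had the smallest p. It was at 17.4 and 14.2 CPM in the parental line and at 9.91 and 7.51 CPM in the clone, a log2 change of -0.87 (SE 0.32; adjusted p = 1 in edgeR's test). Zfp131, a zinc finger protein, was at 40.6 and 26.3 against 25.1 and 23.1 CPM. Coq6, an enzyme of coenzyme Q synthesis, was at 13.5 and 15.4 against 7.74 and 10.9 CPM. The log2 changes of Zfp131 and Coq6 were -0.48 (SE 0.21) and -0.63 (SE 0.28). That of Zfp131 rested on parental replicate 1, without which it was -0.12, and it was -0.75 without parental replicate 2. In each of these genes the clone libraries were below the parental libraries by the rule that selected them. B4galt3, Gm10330, Recql, Armc8, Rab28 and Lztr1 had log2 changes from -0.58 (Armc8) to -0.40 (Recql), each at an adjusted p of 1 in edgeR's test. A share of 8.64% of all tested genes had both clone libraries below both parental libraries, and 8.61% had both above.

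Among the 10 genes named as higher, Bckdhb and Abi2 had the smallest p. Bckdhb encodes a subunit of the branched-chain ketoacid dehydrogenase and was at 20.03 and 21.2 CPM in the parental line and at 26.4 and 28.6 CPM in the clone. Its log2 change was 0.42 (SE 0.19; adjusted p = 1 in edgeR's test). Abi2, an adaptor of the actin-regulating WAVE complex, was at 9.35 and 10.3 against 16.2 and 13.0 CPM, a log2 change of 0.58 (SE 0.27). Cdkn2d, an inhibitor of cyclin D kinases, was at 8.20 and 9.97 against 12.3 and 15.2 CPM, and had the highest estimate of the 10, 0.61 (SE 0.35). Pcgf1, a subunit of a variant Polycomb repressive complex, was at 15.3 and 16.6 against 21.3 and 25.7 CPM. Lin52, a subunit of the DREAM complex that represses cell cycle genes, was at 14.7 and 19.6 against 20.8 and 25.7 CPM. Vps37b, Tm9sf4, Nck2, Ranbp9 and Usp40 had log2 changes of 0.34 to 0.49. All 10 stayed at an adjusted p of 1 in edgeR's test, with and without the replicate term. Vps37b, Ranbp9, Usp40, Mid1, Kmt2e, Zfp131, Coq6, B4galt3 and Recql overlap a counted gene on the other strand, and Nck2 one on the same strand. Whether the counting used the strand is not given in the sources used here. Overlapping entries on opposite strands of the ribosomal RNA locus, described further on, had identical counts of 1 allele. There the strand did not keep reads apart, so the counts of the genes listed here may include reads of the neighbour. How many they include was not tested.

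**Figure D2:**
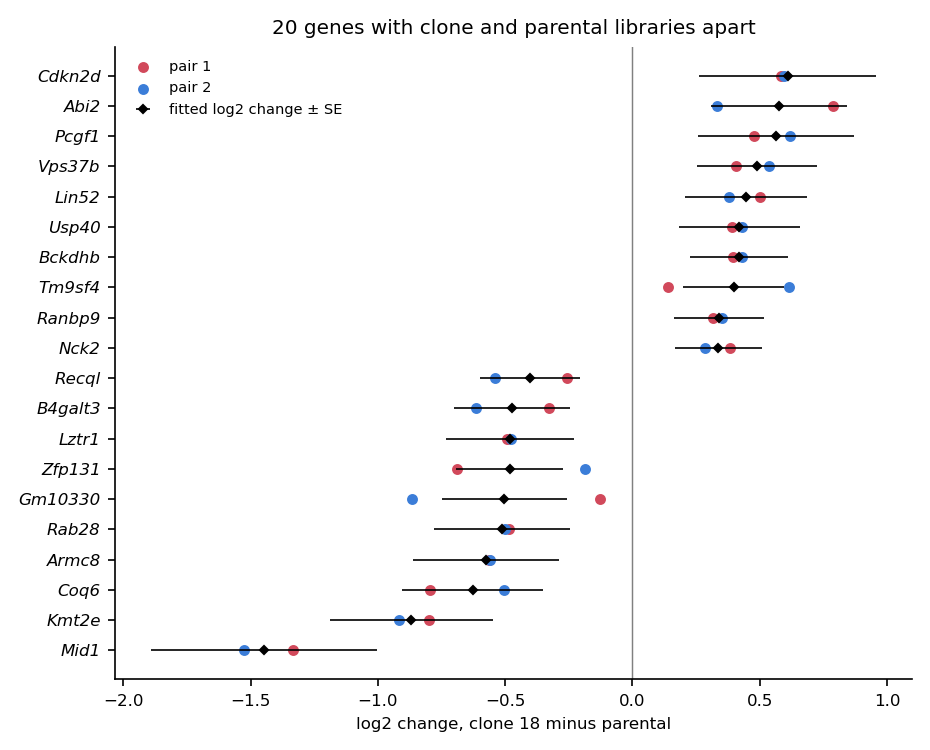
Log2 change of the 20 genes chosen by rule in pair 1, in pair 2 and in the fit (diamonds, with the SE as bars). The estimates run from -1.45 for Mid1 to 0.61 for Cdkn2d, and none of the 20 was called.

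Mitochondrially encoded mRNAs were lower and ribosomal RNA was higher in both clone libraries than in their same-numbered parental libraries. All 11 of the tested mitochondrial mRNAs, which encode subunits of the respiratory chain and of ATP synthase, were lower in both pairs, against 26.1% of all tested genes. Their median log2 change was -0.41, against -0.01 over all tested genes. In 6 of 11 both clone libraries lay below both parental libraries, against 8.64% of all tested genes. The median was -0.66 without parental replicate 1 and -0.64 without clone replicate 2, and -0.19 without parental replicate 2 and -0.21 without clone replicate 1. These fits had no replicate term, so leaving out a library adds part of the difference between replicates to the change. The summed level of these mRNAs was 35025 and 58214 CPM in the parental line and 27532 and 43710 CPM in clone 18. Parental replicate 1 was below clone replicate 2, so the summed levels overlapped and the order held within the pairs. Between the replicates the median difference was 0.29 in the parental line and 0.32 in the clone. The genes ranged from -0.56 (mt-Nd1) to -0.22 (mt-Nd6).

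Of these genes, mt-Nd1, a core subunit of complex I, was at 3098 and 3652 CPM in the parental line and at 2148 and 2429 CPM in the clone (log2 change -0.56, SE 0.32; adjusted p = 1 in edgeR's test, with and without the replicate term). The cytochrome b gene mt-Cytb was at 4132 and 4880 against 3061 and 3096 CPM (-0.55). For mt-Co1, a subunit of complex IV, the values were 9637 and 22978 against 7751 and 18161 CPM, so that replicate 2 was above replicate 1 in both lines. None of the 11 was called. With the replicate term 4 of 11 had an unadjusted p under 0.05 in edgeR's test, against 1.3% of all tested genes that were lower at that level. The 11 are not independent measurements: all moved the same way, and mt-Atp6 overlaps mt-Atp8 and mt-Co3 on the same strand. Nearly all counts of mt-Nd1 were in the 129S1 column: 16239, 12084, 8884 and 12298 against 0, 2, 0 and 1 in the CAST column. The share of all counts from the mitochondrial genome was 3.57% and 5.91% in the parental line and 2.85% and 4.42% in the clone, and 3.16% to 8.61% in the other 20 libraries.

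The 4 genes farthest up in both pairs among the better covered ones, Gm42418, AY036118, CT010467.1 and n-R5-8s1, lie over ribosomal RNA sequence. Gm42418 (ENSMUSG00000098178.1; chromosome 17, 39846958 to 39848788), AY036118 and CT010467.1 overlap one another in a ribosomal RNA precursor sequence. The 129S1 counts of Gm42418 and CT010467.1 were the same number in each of the 4 libraries, so these entries are not separate measurements. Gm42418 lies on the strand opposite CT010467.1, so the strand did not keep their reads apart. Gm42418 was at 371 and 1633 CPM in the parental line and at 1644 and 3985 CPM in clone 18. The groups did not overlap, but parental replicate 2 and clone replicate 1 were nearly level. Its log2 change was 1.49 (SE 0.68; adjusted p = 1 in edgeR's test). It was 2.93 without parental replicate 2, and 0.79 and 0.73 without parental replicate 1 or clone replicate 2. The other 20 libraries ranged from 215 to 3620 CPM, so clone replicate 2 lay above all other libraries of the series. Malat1 (ENSMUSG00000092341.3; chromosome 19, 5795690 to 5802672), a long noncoding RNA kept in the nucleus, was at 105 and 180 CPM in the parental line and at 320 and 217 CPM in the clone. Its log2 change was 0.92 (SE 0.36; adjusted p = 1 in edgeR's test), with 1.61 in pair 1 and 0.27 in pair 2. Without parental replicate 1 or clone replicate 1 the change was 0.58 or 0.60. Clone replicate 1 was just above the highest of the other 20 libraries, 319 CPM.

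Ribosomal RNA is not polyadenylated, so these counts are of RNA that poly(A) selection is meant to remove. The mitochondrial mRNAs were lower in the same libraries, and the part of RNA quality or library preparation in either was not tested. With the 4 i10 libraries fitted alone and the replicate term, which leaves 1 residual degree of freedom, 26 genes of 13017 were called (0.2%), 11 higher and 15 lower. The 10 with the smallest p were AY036118, CT010467.1, Gm42418, Mid1, Malat1, the ribosomal RNA gene n-R5-8s1, mt-Nd1, mt-Cytb, mt-Nd2 and Gm37376, which lies opposite Malat1. Dnmt3l and Nupr1, described further on, were also among the 26.

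**Figure D3:**
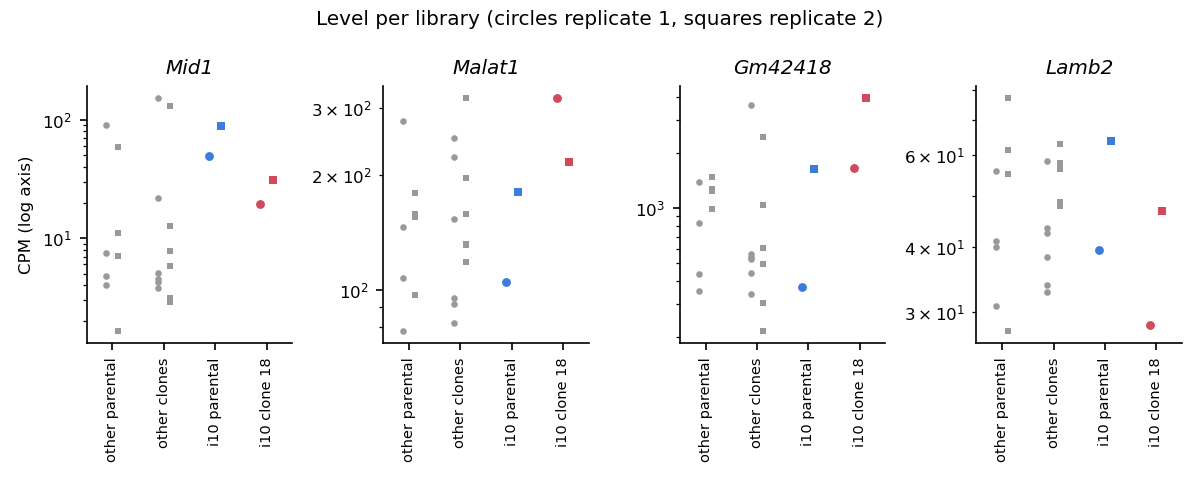
Levels in CPM on log axes of Mid1, Malat1, Gm42418 and Lamb2 in each of the 24 libraries, as circles for replicate 1 and squares for replicate 2. The i10 clone libraries (red) lie below the i10 parental libraries (blue) for Mid1 and above them for Malat1 and Gm42418, within or near the range of the other lines (grey).

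Of 78 tested genes for cytosolic ribosomal proteins, 50 were higher in both pairs and 0 lower in both, against 24.3% and 26.1% of all tested genes. In 4 of 78 both clone libraries lay above both parental libraries, against 8.61% of all tested genes. The median log2 change was 0.07, with 0.10 in pair 1 and 0.05 in pair 2, and 0 were called. Its sign turned without parental replicate 1 (-0.06) or clone replicate 2 (-0.04), and it was 0.21 and 0.17 without parental replicate 2 or clone replicate 1. Such fits had no replicate term, so they mix the difference between replicates into the change and cannot test the order within pairs. The summed level of these genes was 70861 and 86318 CPM in the parental line and 75999 and 89742 CPM in the clone. Rpl4, a protein of the large subunit, was at 3946 and 5619 against 4206 and 6380 CPM. The replicates lay farther apart than clone and parental line did, with a median of 0.26 between the parental replicates.

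Of the genes for glycolysis and the hypoxia response, 15 of 24 tested were lower in both pairs and 2 were higher in both. Of all tested genes, 26.1% were lower and 24.3% higher in both pairs. The median log2 change was -0.13 and 0 were called. The lactate exporter gene Slc16a3 was at 38.7 and 9.37 CPM in the parental line and at 26.1 and 3.36 CPM in the clone (-0.77, SE 0.77; adjusted p = 1 in edgeR's test). Pdk1, the kinase that shuts pyruvate out of the mitochondrial citrate cycle, was at 346 and 173 against 274 and 147 CPM (-0.31, SE 0.38). Pkm was at 5152 and 2575 against 4730 and 2230 CPM, and Ldha at 2289 and 954 against 2053 and 868 CPM. The 2 that were higher in both pairs were Hk1, at 142 and 266 against 179 and 273 CPM, and Vegfa, at 16.2 and 38.7 against 23.9 and 43.5 CPM. Replicate 2 was far below replicate 1 in both lines for most of these genes, with a median of -0.87 on the log2 scale between the parental replicates and -0.84 between the clone replicates. Without parental replicate 1 the median change was 0.35, and without clone replicate 1 it was -0.68, so its sign rested on the pairing.

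Genes of the ATF4 stress response had a median log2 change of 0.14, but 14 of 21 differed in sign between the 2 pairs. The median was 0.00995 without parental replicate 1 and 0.04 without clone replicate 1. Nupr1, a small stress-induced chromatin protein, was at 24.2 and 65.9 CPM in the parental line and at 46.4 and 78.6 CPM in the clone, with a log2 change of 0.49 and an adjusted p of 1 in edgeR's test over the 24 libraries, with and without the replicate term. With the 4 i10 libraries alone and the replicate term Nupr1 was called (adjusted p = 0.0164). Slc3a2, the heavy chain of amino acid transporters, was at 478 and 739 against 631 and 796 CPM. The p53 targets, which were strongly higher in replicate 2 of both lines (medians of 1.25 and 1.10), had a median of 0.00 in pair 1 and 0.16 in pair 2.

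**Figure D4:**
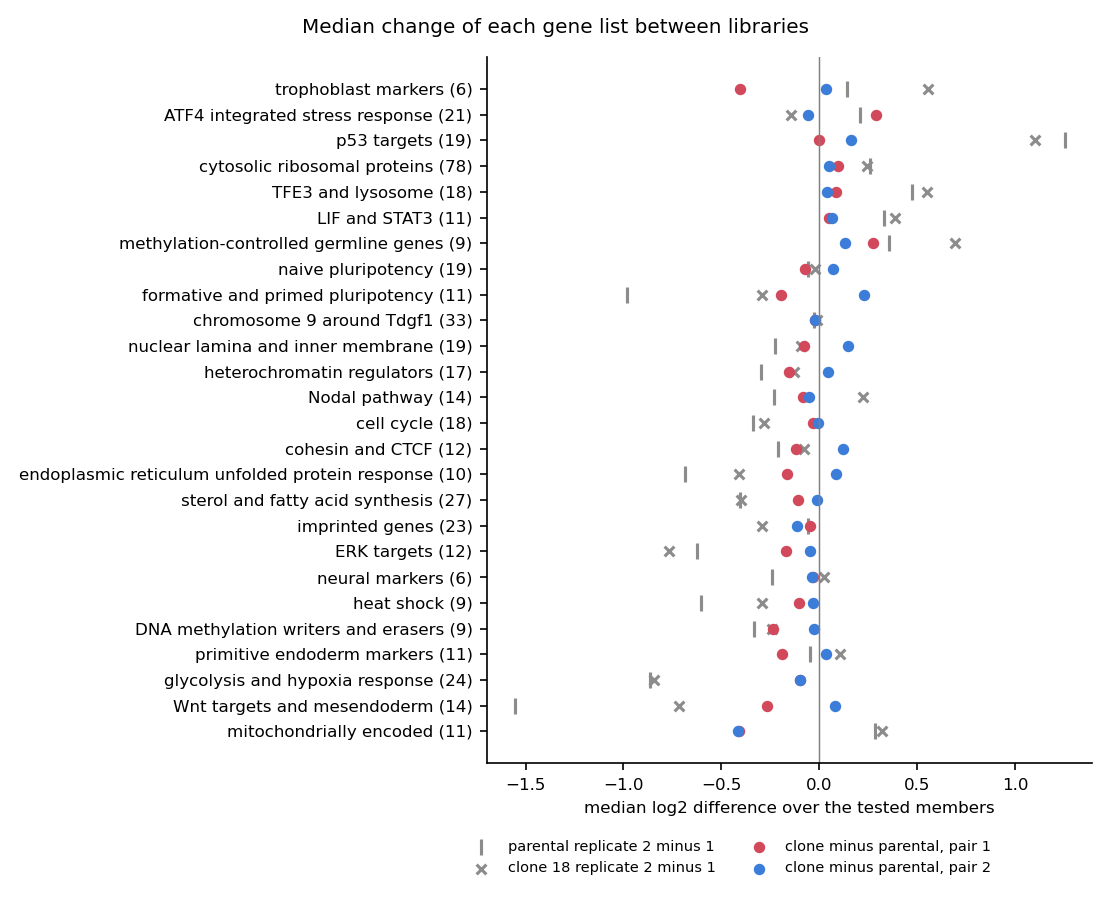
Median log2 difference over the tested members (number in parentheses) of each list with at least 6 of them, for clone 18 minus parental in pair 1 and pair 2 and for replicate 2 minus replicate 1 of either line. Apart from the mitochondrially encoded genes, at -0.41 in both pairs, the medians of both pairs lie between -0.40 and 0.29, while those between the parental replicates run from -1.56 to 1.25.

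The regulators closest to the study's subject differed little from the parental line. Of 19 nuclear lamina and inner membrane genes, 0 were called, 5 were higher and 2 lower in both pairs, and the median log2 change was -0.02. Over all tested genes, 24.3% were higher and 26.1% lower in both pairs. Lmnb1, which encodes lamin B1, was at 529 and 312 CPM in the parental line and at 446 and 343 CPM in the clone. Lbr, the lamin B receptor that ties heterochromatin to the membrane, was at 174 and 149 against 182.3 and 167.5 CPM. Lmna, the lamin A/C gene, was at 29.0 and 26.0 against 25.4 and 28.4 CPM. Emd, which encodes emerin, was at 29.0 and 25.4 against 30.5 and 27.3 CPM. The members with the highest estimates were Tor1a, a torsin of the nuclear envelope lumen (32.8 and 27.8 against 39.9 and 34.8 CPM; log2 change 0.30, SE 0.20), and Sun2, which links the lamina to the cytoskeleton (17.7 and 18.7 against 20.3 and 24.3 CPM; 0.29, SE 0.33). For both the clone libraries were above the parental libraries, as in 8.61% of all genes.

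No gene of the machinery of heterochromatin and of chromosome loops was called. Among 17 heterochromatin regulators the median log2 change was -0.03, with 1 higher and 6 lower in both pairs (24.3% and 26.1% of all tested genes). The histone methyltransferase gene Setdb1 was at 79.9 and 69.8 against 70.4 and 60.6 CPM, and its corepressor Trim28 at 1185 and 786 against 982 and 736 CPM. Among 12 tested cohesin and CTCF genes the median was -0.05. Ctcf itself was at 17.2 and 13.0 against 10.9 and 15.0 CPM. For DNA methylation, 6 of 9 genes were lower and 1 was higher in both pairs, against 26.1% and 24.3% of all tested genes. Dnmt3l, the cofactor of the de novo methyltransferases, had 98 and 12 counts in the parental line and 22 and 13 in the clone, that is 18.7 and 3.63 against 5.32 and 2.57 CPM (log2 change -1.60, SE 0.96; adjusted p = 1 in edgeR's test). Parental replicate 1 alone was high. Dnmt3l was called in 3 alternatives, with the 4 i10 libraries alone and the replicate term (adjusted p = 0.00444) and without a filter on low counts, in total and in 129S1 counts. Tet3 was at 5.53 and 4.53 against 2.66 and 2.57 CPM, from 11 to 29 counts. Dnmt1, the maintenance enzyme, was at 370 and 390 against 361 and 375 CPM.

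Naive pluripotency genes had a median log2 change of -0.00, with 4 of 19 higher and 5 lower in both pairs. For this and the next lists, the shares over all tested genes were 24.3% higher and 26.1% lower in both pairs. The highest and lowest estimates were those of Dppa3 at 0.25 (328 and 506 against 413 and 577 CPM; SE 0.59) and Klf2 at -0.21 (33.95 and 31.4 against 30.2 and 26.3 CPM; SE 0.48). Nodal, the ligand that binds with the co-receptor Tdgf1, was at 62.0 and 48.7 against 52.9 and 46.0 CPM, and its feedback inhibitor Lefty2 at 633 and 389 against 604 and 271 CPM. Of the 14 tested Nodal pathway genes 2 were higher and 5 lower in both pairs. Of 23 tested imprinted genes, 5 were higher and 7 lower in both pairs, and 0 were called. The median log2 change was -0.08, and it was 0.17 without parental replicate 1. Rian, a noncoding RNA of the Dlk1 domain, was at 855 and 864 against 890 and 865 CPM, and Slc38a4 at 139 and 169.5 against 148 and 174 CPM. Peg10 was at 35.9 and 7.55 against 24.2 and 5.33 CPM (log2 change -0.62, SE 1.09).

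For the allelic ratio, 129S1 over CAST, 10795 genes had enough counts from both alleles, set at a mean of 10 each, and edgeR's test called 0 of them (0.0%). At an unadjusted p under 0.05, 169 genes had a higher ratio in the clone (1.57%) and 179 a lower one (1.66%). With the replicate term the numbers were 199 (1.84%) and 220 (2.04%), again with 0 called. Tested separately, 129S1 counts gave 0 called among 13919 genes (131 at an unadjusted p under 0.05) and CAST counts 0 among 13951 (131). The ratio changes of pair 1 and pair 2 were unrelated across the better covered genes (r of -0.031).

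The ratio with the smallest p was that of Lamb2 (ENSMUSG00000052911.9; chromosome 9, 108479736 to 108490530), which encodes the laminin β2 chain of basement membranes. Its 129S1 counts were 101 and 107 in the parental line and 32 and 86 in clone 18, and its CAST counts 106 and 104 against 85 and 151. The 129S1 share was thus 48.8% (95% Wilson interval 42.1 to 55.6) and 50.7% (44.0 to 57.4) in the parental line and 27.4% (20.1 to 36.1) and 36.3% (30.4 to 42.6) in the clone. Intervals of shares cover counting error only. Both clone libraries were below all 22 other libraries of the series, whose shares were 44.9% to 55.5%. The log2 change of the ratio was -1.01 (SE 0.22; adjusted p = 1 in edgeR's test). Set against the mean of the other 4 recombinations, the i10 change differed by -1.05 (SE 0.23; adjusted p = 0.0268 in edgeR's test, 0.032 with the replicate term). This call was lost without either parental replicate or without clone replicate 1, with adjusted p of 0.126 to 0.25, while the difference stayed between -1.43 and -0.83. In the sum of alleles Lamb2 was at 39.5 and 63.8 CPM in the parental line and at 28.3 and 46.8 CPM in the clone (log2 change -0.45, SE 0.38).

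Als2cl (ENSMUSG00000044037.15; chromosome 9, 110879870 to 110900530) had a higher 129S1 share in the clone. Its 129S1 counts were 42 and 51 in the parental line and 32 and 79 in the clone, and its CAST counts 25 and 55 against 10 and 17. The 129S1 share was 62.7% (50.7 to 73.3) and 48.1% (38.8 to 57.5) in the parental line and 76.2% (61.5 to 86.5) and 82.3% (73.5 to 88.6) in the clone. The log2 change of the ratio was 1.78 (SE 0.41; adjusted p = 1 in edgeR's test). The same direction was seen in every other recombination: the parental lines had mean shares of 52.8% to 56.6% and the clones 72.4% to 93.0%. The difference between i10 and the mean of the others was -0.49 (adjusted p = 1 in edgeR's test), so no difference between i10 and the others was detected. Als2cl overlaps Tmie and Gm43127 on the other strand, and its counts may include theirs.

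Of the other genes named by the ratio, Dna2 had the most counts. Dna2, a helicase and nuclease of DNA replication and repair, had 129S1 shares of 45.4% (42.4 to 48.5) and 38.6% (34.4 to 42.9) in the parental line and 53.5% (50.1 to 56.9) and 50.1% (46.8 to 53.3) in the clone. The other 20 libraries had 39.5% to 48.7%. The log2 change of its ratio was 0.55 (SE 0.14; adjusted p = 1 in edgeR's test), and the difference from the other recombinations had an adjusted p of 0.0745, or 0.04 with the replicate term. Cdk5rap2, a centrosome protein, Hnrnph3, an RNA-binding protein, and Spg7, a mitochondrial protease, had ratio changes of 0.51, 0.65 and 0.88, the last being 0.55 without parental replicate 1. The 4 others with lower ratios were Dele1, which signals mitochondrial stress (-0.45), the ubiquitin ligase subunit gene Maea (-0.68, but -0.34 without clone replicate 2 and -1.04 without clone replicate 1), Bod1l (-0.63) and Hnrnpul1 (-0.42). For none of these 7 was the difference from the other recombinations called in edgeR's test (adjusted p 0.0599 to 0.361). Against the range of shares in the other 20 libraries, both clone shares of Hnrnph3, Dele1 and Bod1l lay outside. For Cdk5rap2 both clone shares lay above it and both parental shares below it. For Maea both parental shares lay above it and clone replicate 2 below it. For Spg7 the clone, at 48.55% and 51.0%, lay inside the range of 38.3% to 52.8%, and parental replicate 1, at 31.0%, below it. Hnrnpul1 lay inside its range in all 4 libraries.

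The protocadherin gamma genes on chromosome 18, cell adhesion genes that share their last exons, had lower 129S1 shares in the clone as a group. In all 22 tested members both clone libraries had lower ratios than both parental libraries, against 15.6% of tested genes, and the log2 change ran from -2.22 (Pcdhgb7) to -0.50, with 20 at an unadjusted p under 0.05 and 0 called in edgeR's test. These members overlap on the same strand and are not separate measurements: the median 129S1 count was 22.5 and 13 in the parental line and 7 and 13 in the clone, and the median CAST count 8 and 3 against 9 and 12.5. For Pcdhgb7 the 129S1 share was 67.4% (52.97 to 79.1) and 76.0% (56.6 to 88.5) in the parental line and 25.0% (12.7 to 43.4) and 41.2% (26.4 to 57.8) in the clone. The other 20 libraries had 37.5% to 62.0%, with a median of 48.5%, so the parental line stood above that range and clone replicate 1 below it. The difference of Pcdhgb7 from the other recombinations had an adjusted p of 0.0802 in edgeR's test and 0.0288 with the replicate term. This group was named after its values were seen.

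**Figure D5:**
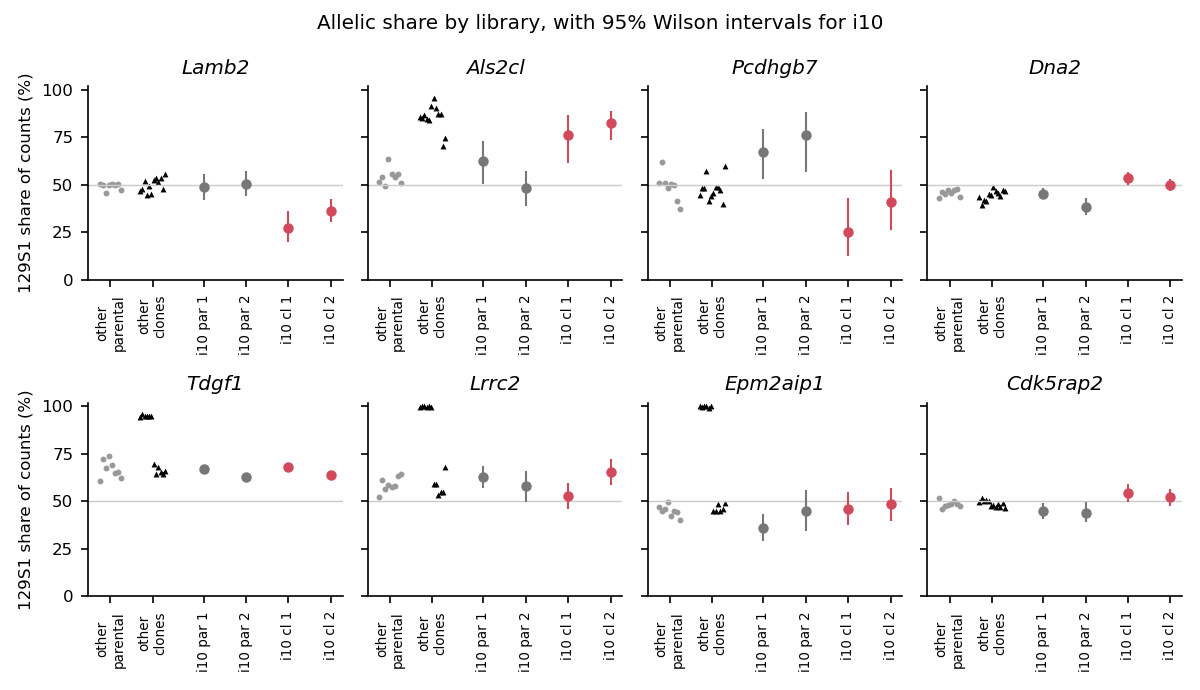
The 129S1 share of counts in percent for 8 genes, in the 4 i10 libraries with 95% Wilson intervals and in the other parental (grey circles) and clone (black triangles) libraries. Lamb2 and Pcdhgb7 are lower in clone 18, Als2cl is higher in all clones, and Dna2, Cdk5rap2 and Epm2aip1 are higher in clone 18. Tdgf1 and Lrrc2 stay near parental shares in clone 18. In Tdgf1, Lrrc2 and Epm2aip1, 6 libraries of d3 and d6 clones lie at 94.5% or above.

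On chromosome 9, Tdgf1, Lrrc2 and Epm2aip1, which had small CAST shares in the clones of d3 and d6, had ample counts of both alleles in i10 clone 18. In the d3 and d6 clones Tdgf1 kept 360 to 552 CAST counts per library, and Lrrc2 and Epm2aip1 had 0 to 2. Tdgf1 (Cripto), the co-receptor of Nodal signalling, had 4185 and 4803 counts from 129S1 in the parental line and 3636 and 7376 in the clone. From CAST it had 2062 and 2868 against 1717 and 4180. In sum it was at 1192 and 2318 CPM against 1294 and 2282 CPM, a log2 change of 0.03 (SE 0.43). Its 129S1 share was 64.8% ± 3.10 (SD, n = 2) in the parental line and 65.9% ± 2.90 (SD, n = 2) in the clone, against 95.01% to 95.3% on average in the clones of d3 and d6. Lrrc2 had 60.5% ± 3.46 against 59.2% ± 9.09 (SD, n = 2). Epm2aip1 had 40.4% ± 6.48 against 47.3% ± 1.66 (SD, n = 2). In each of these 3 genes the clones of d3 and d6 averaged at least 95.01% 129S1. The clones of i7 and i12 averaged 65.3% to 66.9% in Tdgf1, 54.15% to 61.6% in Lrrc2 and 45.0% to 47.5% in Epm2aip1. Counts of both alleles were thus not particular to clone 18.

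In edgeR's test the i10 change of the ratio was lower than the mean of the other 4 recombinations by -1.52 in Tdgf1 (adjusted p = 0.00109), -4.29 in Lrrc2 (4.33e-06) and -3.89 in Epm2aip1 (4.09e-06). The i10 changes themselves were 0.07, -0.12 and 0.48, none called. The mean of the others included the d3 and d6 clones, which had small CAST shares, while the i7 and i12 clones kept both alleles. The weakly expressed Rtp3 of this stretch was at 4.58 and 7.86 CPM in the parental line and at 7.74 and 7.31 CPM in the clone, and Dclk3 at 5.91 and 3.02 against 4.11 and 2.77 CPM. Of 63 protein-coding genes within 2 Mb of the start of Tdgf1, 33 were tested, 0 were called, and the median log2 change was -0.02. Als2cl starts 0.0597 Mb from Tdgf1 and Lamb2 2.46 Mb from it, on the same side.

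Medians over whole chromosomes stayed close to 0. Over the chromosomes, the median change of total counts, averaged over the 2 pairs, ran from -0.02 (chromosome 8) to 0.01 (chromosome 15) on the log2 scale, inside the range between the parental replicates, -0.08 to 0.07. For the ratio it ran from -0.06 (chromosome 18) to 0.02 (chromosome 6). Between the parental replicates it ran from -0.08 (chromosome X, 59 genes) to 0.04 (chromosome 18), and the lowest autosome was chromosome 11, at -0.04. The clone values average 2 pairs, while those between the parental replicates are single differences. Chromosome 18 was lowest in both pairs, at -0.07 and -0.05 over 272 genes, below every autosome between the parental replicates. Without the 22 protocadherin gamma genes it was at -0.05 and -0.02. Of 112 genes whose ratio change differed between i10 and the other recombinations (1.04% of 10795; 1.16% with the replicate term), 106 lay on chromosome 14, and in i10 itself those 106 had a median ratio change of 0.10, with 0 called. They were chosen by a difference that includes the i10 change. Over 339 genes of chromosome 14 not chosen this way, the median was -0.01 in pair 1 and 0.01 in pair 2.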

How the data were processed

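RNA was measured by poly(A) sequencing of 24 libraries, of which 4 are used here for the i10 comparison. The authors deposited a table of whole-number counts per gene, with a 129S1 and a CAST column per library. STAR, SAMtools and mm10 are named per the submitters' processing notes, without versions. The counting tool, the annotation and how reads without a strain variant were handled are not given in the sources used here. The total of a gene is the sum of its 129S1 and CAST counts. Of 48985 gene identifiers, 48838 matched GENCODE M21 without their version, and the 147 others hold 0.0148% of counts. Coordinates are from that annotation, of GRCm38 (mm10).

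Total, 129S1 and CAST counts were tested with edgeR 4.0.16 (R 4.3.3) by its quasi-likelihood test over all 24 libraries in 12 groups, with TMM scaling and edgeR's filter on low counts, and Benjamini-Hochberg adjustment over all tested genes. Genes were called at an adjusted p under 0.05. The allelic ratio was tested in one fit of both alleles, for genes averaging 10 or more counts on each allele. The i10 change was also tested against the mean change of the other 4 recombinations. Alternatives were the replicate number as a block, DESeq2 1.42.0, other filters, the 4 libraries alone and each library left out. Fits with a library left out had no block, so they took in part of the difference between replicates. The code was tested on simulated data.

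The replicate numbers were taken to pair the libraries. The difference between replicates 2 and 1 correlated between clone and parental line in all 7 clones of the series, with r of 0.358 to 0.617 across 16253 genes and 0.565 in i10. The chi-square per degree of freedom between i10 libraries was 3.48 and 3.50 for the same number and 13.7 to 26.9 otherwise. The labels do not say what the numbers stand for.

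The genes named are the 10 higher and 10 lower protein-coding genes of smallest p with 50 or more counts on average and groups that do not overlap, the 5 of smallest p in each direction of the ratio with 20 or more counts per allele, the 10 of smallest p called in any alternative, up to 4 members of each gene list and its defining members, and genes around Tdgf1. The members and the lists were chosen with earlier results of these data known. With 2 libraries a group, an exact permutation test of one value cannot go below p = 0.333. Some genes are not reported here.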

Additional observations from a re-analysis of the deposited data

Results flagged for a closer look

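The i10 change in the allelic ratio differed from the mean of the other 4 recombinations, by edgeR's quasi-likelihood test of that difference, in these genes. It was -1.051 on the log2 scale for Lamb2, whose 129S1 share in both clone 18 libraries lay below that of all other libraries. It was -3.891 for Epm2aip1, -4.286 for Lrrc2 and -1.52 for Tdgf1. There the clones of d3 and d6 had 94.5% or more of their counts from 129S1. The lines of i7, i10 and i12 did not. The difference was 1.292 for Rbm25, where i12 clone 10 had a 129S1 share of 2.3% on average. On chromosome 14, 106 genes had a called difference, with a median ratio change of 0.10 in i10 itself. Over 339 genes of that chromosome not chosen by the difference, it was -0.01 in pair 1 and 0.01 in pair 2.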

How the results depend on the processing

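No gene was called in total counts with the replicate block, DESeq2, DESeq2's size factors, a stricter filter, the 4 i10 libraries alone without the block, or any i10 library left out. Without a filter on low counts edgeR called 6 genes in total counts, 4 in 129S1 counts and 3 in CAST counts. With the 4 i10 libraries and the replicate block it called 26, and in the allelic ratio of the 4 libraries alone 1, Gm42418. Dnmt3l was called in 3 of these alternatives and Nupr1 in 1. The cause was not tested. The number of genes whose ratio change differed from the other recombinations was 112, 125 with the replicate block, and 62 to 77 with an i10 library left out, which alternatives were chosen after seeing the data. Lamb2 lost that call in 3 of these 4. With a library left out the median log2 change ran from -0.6591 to -0.189 for the mitochondrially encoded genes, from 0.009953 to 0.2132 for the ATF4 genes, from -0.06 to 0.21 for the ribosomal protein genes and from -0.68 to 0.35 for the glycolysis genes. Medians of the other lists near 0, such as those of the lamina, heterochromatin, cohesin and pluripotency genes, also took either sign. Fits with a library left out had no replicate block, so these ranges include differences between replicates. Of 319 alternative values for 29 genes named in total counts, 304 stayed on their side of the threshold and 15 passed it. None of these, or of the 80 for 10 genes named by their ratio, changed direction. Most of these genes were chosen because their clone and parental libraries do not overlap. That choice largely fixed the lack of reversals in advance. The replicate block changed no other call of a named gene except that it added those of Dna2 and Pcdhgb7 in the difference from the other recombinations. Depth limits allelic values: those of Als2cl and Pcdhgb7 rest on 25 to 106 counts per library.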
